A study of Mus musculus with 6 samples.

Results

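Barcodes of mouse testis with few RNA molecules and a large mitochondrial share were examined across 6 droplet single-cell libraries. The barcodes were chosen by their measured UMI totals and mitochondrial shares. A barcode was taken when it held under 4000 unique molecular identifiers (UMIs, each marking 1 captured RNA molecule), when the 13 transcripts encoded by the mitochondrial genome gave 8% to 20% of its UMIs, and when the Sertoli cell transcripts Cst9, Cst12, Aard, Defb36, Defb19 and Rhox8 together gave fewer than 3 UMIs. This rule found 4453 of 54253 deposited barcodes (8.21%), or 4453 of the 40361 barcodes under 4000 UMIs (11.0%). They are called mitochondria-rich barcodes here. Controls 1, 2 and 3 held 676, 685 and 709 of them, and the smoking libraries, in the same order, held 664, 702 and 1017.

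The study addressed the effect of passive smoke on sperm production. ICR mice, an outbred stock, arrived 6 weeks old and, following 1 week of adaptation, entered 12 weeks of exposure. The smoking group breathed the smoke of 15 cigarettes for 30 minutes a day (1.1 mg nicotine and 11 mg tar per cigarette, 3.47 mg/m3 of smoke), and the control group was placed in a chamber without smoke. Each group had 7 mice, and no allele or transgene is named. The age label of 8 weeks differs from that schedule. Cells came from the left testis after depletion of dead cells and went into libraries made with the 10x Genomics 3′ chemistry. The labels do not tie libraries to mice, so each p-value measures only the spread between these libraries, which may be technical.

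Mitochondrial DNA encodes subunits of the respiratory chain and of ATP synthase, whose transcripts are polyadenylated and are therefore captured with messenger RNA from the nucleus. A large mitochondrial share is a common sign of a damaged cell that has lost cytoplasmic RNA, and it also differs between cell types with their content of mitochondria. Spermatids, the haploid cells after meiosis, shed most of their cytoplasm and pack their chromatin with transition proteins and protamines. The Speer genes encode glutamate-rich proteins of spermatids, and most of them lie as near-identical copies on chromosome 5.

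The first result was a difference in the genes beside these mitochondrial transcripts. On chromosome 5, 2 groups of copied genes held 10 of the 12 largest rises, Speer4c and Speer4e, given beforehand as markers, included. Upstream sequences are shown because several of the copies share them. RefSeq's promoter table for GRCm38.p6, the mm10 build, gave windows of 300 bases for 14 of 17 genes that passed the test in or near the Speer array (15 in the array, Speer4a and Speer4b) and for 5 of 7 of the other group. The 250 bases before the RefSeq start are printed below, 5′ to 3′ on the strand of the gene. In Gm21190 (chr5:15529223-15529472, minus strand), Gm10354 (chr5:14978900-14979149, minus strand) and Speer4d (chr5:15618849-15619098, plus strand) the capitals mark TGATGTCA, read on either strand, a stretch of the same length as the cAMP response element TGACGTCA. In Gm5565 (chr5:146160545-146160794, minus strand) and Gm6408 (chr5:146481693-146481942, plus strand) the capitals mark an inverted repeat, GTTACCNGGTAAC.
Gm21190: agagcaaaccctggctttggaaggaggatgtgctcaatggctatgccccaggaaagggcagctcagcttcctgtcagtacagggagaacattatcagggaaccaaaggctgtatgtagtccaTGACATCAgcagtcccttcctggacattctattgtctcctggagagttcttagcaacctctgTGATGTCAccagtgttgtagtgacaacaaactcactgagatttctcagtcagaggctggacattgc
Gm10354: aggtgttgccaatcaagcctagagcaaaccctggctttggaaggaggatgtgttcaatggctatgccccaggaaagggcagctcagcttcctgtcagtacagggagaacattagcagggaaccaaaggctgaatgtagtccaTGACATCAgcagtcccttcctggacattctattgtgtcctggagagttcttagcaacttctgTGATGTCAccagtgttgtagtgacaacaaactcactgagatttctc
Speer4d: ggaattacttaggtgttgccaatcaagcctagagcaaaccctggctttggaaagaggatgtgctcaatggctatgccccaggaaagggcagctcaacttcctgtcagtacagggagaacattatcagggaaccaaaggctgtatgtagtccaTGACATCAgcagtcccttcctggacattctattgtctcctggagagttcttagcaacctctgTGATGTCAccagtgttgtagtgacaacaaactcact
Gm5565: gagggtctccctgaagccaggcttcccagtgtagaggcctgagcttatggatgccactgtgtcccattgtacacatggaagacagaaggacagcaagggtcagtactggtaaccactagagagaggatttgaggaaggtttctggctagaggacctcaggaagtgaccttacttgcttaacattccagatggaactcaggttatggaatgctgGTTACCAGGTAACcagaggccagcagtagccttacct
Gm6408: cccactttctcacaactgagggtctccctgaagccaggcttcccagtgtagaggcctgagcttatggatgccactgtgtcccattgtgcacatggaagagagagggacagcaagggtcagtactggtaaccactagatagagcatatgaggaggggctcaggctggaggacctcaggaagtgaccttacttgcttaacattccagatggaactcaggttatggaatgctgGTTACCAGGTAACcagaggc

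Both stretches were counted in all windows of this length, on both strands. TGATGTCA stood in 3.62% of 32851 windows and TGACGTCA in 1.79%. By gene, TGATGTCA was present for 11.4% of the 651 genes that were higher in the mitochondria-rich barcodes and had a window, for 3.98% of all tested genes with one, and for 2.43% of the 1028 genes that were lower. Without the genes of both groups, Speer4a and Speer4b, the share among the higher genes was 9.65% of 632. TGACGTCA was present for 3.99% of the higher genes with a window, 3.47% of the tested and 1.65% of the lower ones. TGATGTCA was present for 13 of the 14 genes of the Speer array, Speer4a and Speer4b included. The 1 without it was Pclo, which is no Speer copy. Both stretches stand in the windows printed above, and several windows of each group are near copies of each other. Counts within the 2 groups therefore partly restate that copying and are no separate support. GTTACCNGGTAAC stood in 13 windows of 12 genes among all 32851, and 11 of these 12 genes lie on chromosome 5. Of the 11 that were tested, 6 were called higher (6.05% of all genes were) and none lower (8.91% of all genes were). All of these 6 but Gm3404 belong to the group of Gm5565, so this count is mostly that of the group. 1700001J03Rik, which lies inside the same stretch of chromosome 5 and holds the repeat, had a log2 fold of -0.08 (SE 0.05). Aligned without gaps, the windows of Gm10354, Speer4e, Speer4c, Speer4d, Gm17019, Gm21149 and Gm21083 were 98.1% to 99.1% identical to that of Gm21190 over 231 to 280 bases, and Gm6408 was 95.1% identical to Gm5565. Other windows were less alike. Gm9758 was 85.2% identical to Gm21190, Speer4a 76.6%, Speer4f1 60.5% and Speer4f2 59.4%. Gm6309 was 73.1% identical to Gm5565, Gm6370 55.1% and 4930449I24Rik 54.9%. A match is only a match of letters, and reads of 1 copy may have been counted for another, so the values of single Speer and Gm copies are uncertain.

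The mitochondria-rich barcodes came from a broad hump in the mitochondrial share, with the 8% limit near its top and the 20% limit in its upper flank. The share had 723 barcodes at 7% to 8% and 689 at 8% to 9%, then 157 at 19% to 20% and 116 at 20% to 21%, all under the same UMI and Sertoli limits. At the UMI limit, 64 barcodes lay just under it (median 3946 UMIs) and 53 just over it (median 4051 UMIs), and 146 barcodes had 2 Sertoli UMIs against 65 with 3. A further 854 barcodes met the mitochondrial and Sertoli limits with 4000 UMIs or more.

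**Figure D1:**
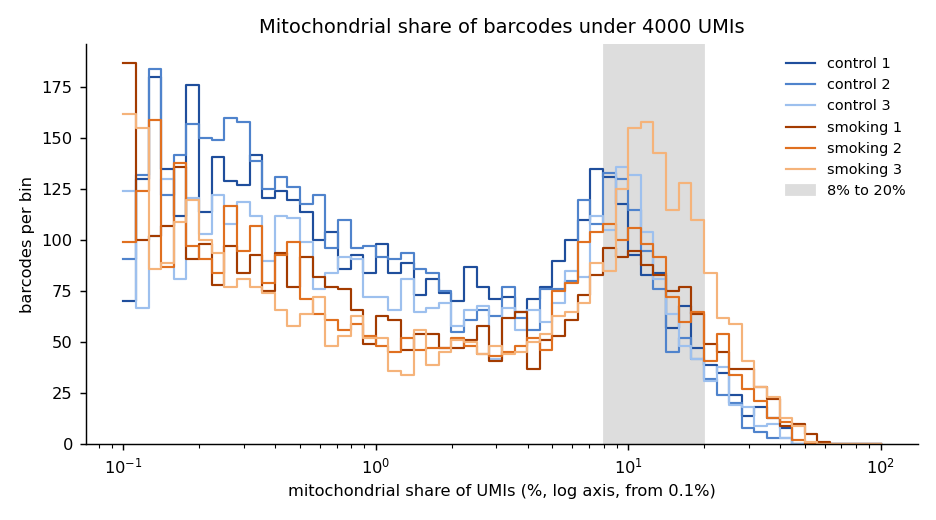
Number of barcodes under 4000 UMIs (y axis) by mitochondrial share of UMIs (x axis, log scale, barcodes under 0.1% not drawn), 1 line per library, with the 8% to 20% window in grey. All 6 libraries show a hump that begins below 8% and runs past 20%, and smoking library 3, with 1017 mitochondria-rich barcodes, has the tallest one inside the window.

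The 13 mitochondrial transcripts chose the barcodes, so their levels are given as a description. mt-Co3, a subunit of cytochrome c oxidase, gave 2.71%, 2.87% and 3.23% of the UMIs of the mitochondria-rich barcodes (lowest, median and highest library), and mt-Co2 gave 2.27%, 2.39% and 2.63%. mt-Atp6, a subunit of ATP synthase, gave 2.10%, 2.18% and 2.31%, and mt-Co1 1.92%, 2.12% and 2.55%. Cytochrome b, mt-Cytb, gave 0.916%, 0.974% and 1.04%, and the complex I subunit mt-Nd4 0.672%, 0.690% and 0.735%. The other 7 transcripts, 6 of complex I and mt-Atp8, each gave at most 0.511%. The mix of the 13 was close to that in barcodes with under 1% mitochondrial UMIs. mt-Co3 was 22.9% of mitochondrial UMIs in the median library against 23.6% there, mt-Co2 19.6% against 18.1%, mt-Cytb 8.04% against 7.25% and mt-Nd4 5.68% against 5.47%.

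These barcodes held 1566282 to 2373832 UMIs per library, 9952362 of them in all from genes of the nucleus. A barcode had a median of 2151.5 to 2654 UMIs, against 2259 to 2621.5 in the remaining 35908 barcodes under 4000 UMIs. The smallest deposited barcode had 1554 to 2150 UMIs by library, so the files hold nothing shallower. All pairs of libraries differed by more than sampling noise in these barcodes: chi-square divided by its degrees of freedom ran from 1.46 (controls 2 and 3) to 5.70 (smoking libraries 2 and 3). Control 3 and smoking library 1 had 1.59, the second lowest value. Over the 15 pairs of libraries, 2 mitochondria-rich barcodes had the same barcode sequence. Barcodes with high doublet scores (383 of 4453) were kept, and the counts of calls were repeated without them.

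Protamine and transition protein transcripts did not mark these barcodes as a set, since their summed levels were alike in the sets of barcodes under 4000 UMIs compared here. Clusters within the mitochondria-rich barcodes did differ, as given below. Prm1, protamine 1, stood at 26410, 34266 and 40050 UMIs per 1000000 UMIs of nuclear genes (nuclear CPM; lowest, median and highest library). It stood at 24258, 33870 and 38364 in low-mitochondrial barcodes, the 30111 under 4000 UMIs with under 8% mitochondrial and fewer than 3 Sertoli UMIs. In 4667 barcodes with 3 or more Sertoli UMIs, a cell type that lacks protamines, it stood at 26902.5, 34332 and 38810. Prm1 was detected in 100% of barcodes in all 3 sets. Tnp2, transition protein 2, likewise stood at 11817 to 18422 nuclear CPM in the mitochondria-rich barcodes and at 12035 to 17992 in those with Sertoli UMIs. With levels alike in all these sets, these transcripts do not show that a barcode is a germ cell, and their source was not tested. Over 15197 genes, log2 nuclear CPM of the mitochondria-rich and the low-mitochondrial barcodes of a library correlated at 0.968 to 0.978 (Pearson, across genes, which are not replicates and share the library). Set against the low-mitochondrial barcodes of the same library, 5.92% to 9.32% of the nuclear UMIs of the mitochondria-rich barcodes lay above that profile, counting noise included. That part measures distance from the low-mitochondrial barcodes only, and the label of germ cells was not tested. In the median library the round spermatid list stood at 4070 nuclear CPM against 2844 in barcodes with Sertoli UMIs. The spermatocyte list stood at 8797 against 7259, the elongating spermatid list at 110431 against 110343 and the spermatogonia list at 105 against 224.

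Nuclear genes were compared within libraries by summing UMIs per library, with the mitochondrial transcripts and the Sertoli transcripts of the rule left out. edgeR's quasi-likelihood test with library as a block, Benjamini-Hochberg adjusted p under 0.05 and a log2 fold of at least 1 in size called 2366 of 15807 genes (15.0%) against all other barcodes under 4000 UMIs, 957 higher (6.05%) and 1409 lower (8.91%). Against the low-mitochondrial barcodes, which obey the same Sertoli limit, 935 genes were higher (6.19%) and 1012 lower (6.70%) of 15115. Of the Sertoli list, 14 of 15 tested genes were called lower against all other barcodes and 1 of 11 against low-mitochondrial ones. The macrophage list had 7 and 8 called lower, the mesenchymal list 4 and 4 and the endothelial list 3 and 3. Of the 957 higher genes, 823 were called higher there too (86.0% of the 957 and 88.0% of the 935). Under 3000 UMIs in place of 4000, 451 genes were higher and 999 lower, and after thinning each barcode to 1500 nuclear UMIs 693 (4.89%) were higher and 1081 (7.62%) lower of 14179. Genes are named when called in the same direction in both comparisons and in all 6 libraries, at 50 nuclear CPM or more on 1 side. This held for 42 rises and 35 falls, of which the 12 largest each way are given.

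Speer4 genes and their unnamed copies rose most. Gm21190 stood at 291, 471 and 436 nuclear CPM in the mitochondria-rich barcodes of controls 1 to 3 and at 375, 289 and 527 in those of smoking libraries 1 to 3. In low-mitochondrial barcodes it stood at 81.3, 83.2 and 87.6 in controls and at 71.5, 77.1 and 66.2 in smoking libraries. The lowest mitochondria-rich value was above every low-mitochondrial value, and the spread among the mitochondria-rich values was the wider. Gm10354 stood at 181, 267 and 315 (lowest, median and highest library) against 39.7 to 69.6, and Gm17019 at 117, 145 and 183 against 28.4 to 41.3. Gm9758, Gm21149 and Gm21083, also copies in that stretch, had log2 folds over all other barcodes of 2.06 to 2.403 (SE 0.09 to 0.10). Also called higher there were 4930572O03Rik at 2.54 (a mean of 28.7 against 4.91 nuclear CPM in low-mitochondrial barcodes), Gm6465 at 1.05 and Gm8897 at 1.18.

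Speer4e and Speer4c had been given as markers of these barcodes, so no p is given for them. Speer4e stood at 126, 197 and 283 nuclear CPM against 38.9 to 49.98 in low-mitochondrial barcodes, and Speer4c at 65.9, 81.3 and 110 against 12.8 to 22.5. Neither gene's values overlapped between these sets. Speer4e was detected in 25.5% of mitochondria-rich barcodes (median library, 18.3% to 33.3%), in 7.40% of those under 1% mitochondrial and in 3.42% of those with 3 or more Sertoli UMIs, where median depths were 2151.5 to 2654, 2267.5 to 2618.5 and 2091 to 2615.5 UMIs. After thinning to 1500 nuclear UMIs these shares were 20.2%, 4.79% and 2.34%. Thinning left out 188 of the 4453 mitochondria-rich barcodes.

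The whole Speer family had 10 tested genes, of which 7 were called higher (6.05% of all genes were) and none lower. The 7 include the given markers Speer4c and Speer4e. The family had a median log2 fold of 1.25 against -0.02 over all 15807 genes. Speer4d had a log2 fold of 2.60 (SE 0.12), Speer4a 2.04 (SE 0.12) and Speer4b 1.41 (SE 0.10), while the given markers Speer4c and Speer4e had 2.34 and 2.20. Speer4f2 at 1.10 and Speer4f1 at 1.03 (SE 0.10 each) were called against all other barcodes but had 0.93 and 0.85 against low-mitochondrial ones, below the fold limit. Speer3 had 0.87 (SE 0.10), below it in both. Speer2, which lies on chromosome 16 and not in the chromosome 5 array, stood at 104, 109 and 140 nuclear CPM against 86.8 to 120 in low-mitochondrial barcodes, so its values overlapped. Speer1 had 0 to 6.79 nuclear CPM.

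The array lies on chromosome 5 between 11341516 and 17480936 (mm10, GENCODE M21), from Speer1 to Speer4f1. It held 49 genes, 32 of them tested, with 15 called higher (6.05% of all genes were), Speer4c and Speer4e among them, and 0 lower. Most other kinds of genes in the same stretch were not called, although Pclo, a presynaptic scaffold gene, was higher at a mean of 1.12 against 0.228 nuclear CPM. 4930519H02Rik stood at a mean of 73.8 nuclear CPM against 82.9 in low-mitochondrial barcodes, and Cacna2d1, a calcium channel subunit, at 8.03 against 6.54. The other stretch, 146157802 to 146505183 on chromosome 5, was drawn from Gm5565 to 4930449I24Rik, both called higher, so its count follows partly from its limits. It held 11 tested genes with 7 called higher (6.05% of all genes were) and 0 lower. Among the 7, the long noncoding RNAs B230303O12Rik and Gm43625 were at means of only 3.29 and 1.94 nuclear CPM. Gm5565 there had the largest named rise, log2 fold 2.62 (SE 0.13, edgeR adjusted p = 4.9e-37), at 26.8, 69.4 and 38.1 nuclear CPM in controls and 52.7, 42.7 and 75.2 in smoking libraries against 5.49 to 10.4 in low-mitochondrial barcodes. Gm6408 followed at 2.36 (SE 0.10), and Gm6370 and 4930449I24Rik had 1.25 and 1.39. Rnf6, a ubiquitin ligase gene between them, was not called and stood at a mean of 63.2 against 46.0 nuclear CPM.

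Away from chromosome 5, 2 long noncoding RNAs were among the 12 largest rises. Gm26699, on chromosome 6, stood at 51.2, 52.5 and 58.1 nuclear CPM against 9.79 to 18.2 in low-mitochondrial barcodes (log2 fold over all other barcodes 2.002, SE 0.10). 1700120G07Rik, on chromosome 7, stood at 79.7, 108 and 146 against 25.9 to 33.5 (1.93, SE 0.08). Cdc42ep3, an effector of the small GTPase Cdc42, also met the rule for naming further down the order, at 441, 598 and 689 nuclear CPM against 206 to 269 (1.25, SE 0.05, edgeR adjusted p = 3.8e-47). Kcnq1ot1, an imprinted antisense RNA of the nuclear noncoding list, stood at 128, 185 and 216 against 73.8 to 106 (1.04, SE 0.06), and Malat1, another nuclear RNA of that list, at 758, 941 and 1739 against 1317 to 2312. Of 7 tested genes of the nuclear noncoding list, 2 were called higher (6.05% of all genes were), Kcnq1ot1 and Snhg11, and none lower (8.91% of all genes were). Against low-mitochondrial barcodes Kcnq1ot1 had 0.90, below the fold limit, Snhg11 was called higher and Meg3 lower.

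**Figure D2:**
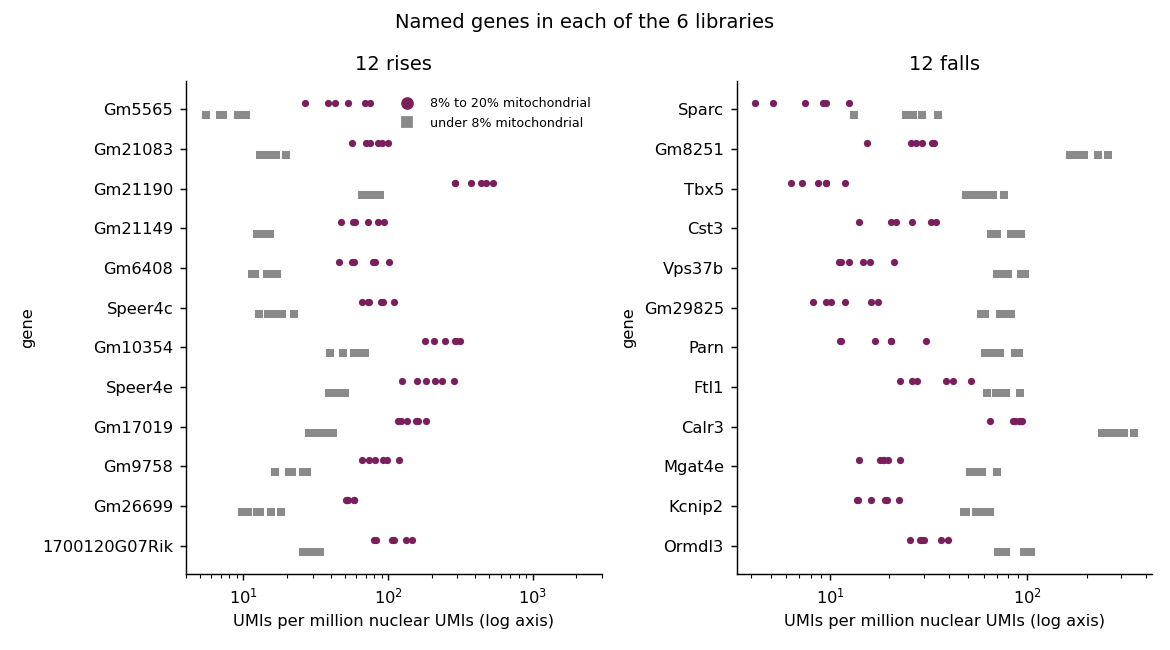
Nuclear CPM (x axis, log scale) of the 12 largest rises (left) and 12 largest falls (right), 1 row per gene, with 1 point per library for barcodes at 8% to 20% mitochondrial (circles) and under 8% (squares). The 2 sets do not overlap for any of the 24 genes, as the rule for naming them required within each library; Gm21190, for example, lies at 289 or more against 87.6 or less.

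Hsp90b1, Hspa5 and Pdia6, which fold secreted and membrane proteins in the endoplasmic reticulum, were higher as well. Hsp90b1, the chaperone GRP94, stood at 944, 958 and 953 nuclear CPM in controls and 936, 898 and 1135 in smoking libraries, against 252 to 350 in low-mitochondrial barcodes. Its log2 fold over all other barcodes was 1.60 (SE 0.05, edgeR adjusted p = 3.3e-57). Hspa5, the chaperone BiP, stood at 512, 677 and 854 against 200 to 281 (1.43, SE 0.05), and Pdia6, a protein disulfide isomerase, at 207, 244 and 300 against 84.0 to 98.5 (1.36, SE 0.05). These 3 genes did not overlap between the sets, and in barcodes with 3 or more Sertoli UMIs their means were 279, 233 and 84.9. Hsp90b1 was detected in 75.2% of mitochondria-rich barcodes in the median library, in 39.2% of those under 1% mitochondrial and in 42.0% of those with Sertoli UMIs (67.4%, 25.9% and 30.3% after thinning).

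The list of 30 chaperone and folding genes, drawn up after the data were seen, had 4 genes called higher (Hsp90b1, Hspa5, Pdia6 and Syvn1; 6.05% of all genes were) and 3 lower (Calr3, Xbp1 and Txndc5; 8.91% of all genes), with a median log2 fold of 0.34. Summed, it stood at 4553, 4988 and 5947 nuclear CPM against 3274 to 3804, higher in 6 of 6 libraries. Syvn1, a ubiquitin ligase for misfolded proteins, lay at the fold limit (1.00, SE 0.15). Clgn, a chaperone needed for sperm fertility, had 0.34 (SE 0.05), Manf 0.12 and Calr 0.42, all below the fold limit. Calr3, the testis form of calreticulin, went the other way at 65.0, 89.0 and 94.4 nuclear CPM against 240 to 345 (log2 fold -1.65, SE 0.06), with no overlap. Xbp1, the transcription factor of the unfolded protein response, and Txndc5 stayed at 1.46 nuclear CPM or less in the mitochondria-rich barcodes of every library.

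The falls were of 2 kinds. Sparc, Cst3 and Ftl1, which encode a matrix protein, cystatin C and the ferritin light chain, were also abundant in barcodes with Sertoli UMIs (means of 290, 584 and 327 nuclear CPM) and were lower in the mitochondria-rich barcodes. Sparc stood at 4.19, 8.36 and 12.5 nuclear CPM against 13.3 to 35.1 in low-mitochondrial barcodes and 32.5 to 86.4 in all other barcodes. For 8 of the other 9 the mean in barcodes with Sertoli UMIs lay below every low-mitochondrial library, and Ormdl3 had a mean of 129 there against 71.0 to 104. Gm8251 stood at 29.3, 25.7 and 33.7 nuclear CPM in controls and at 32.9, 15.4 and 27.2 in smoking libraries, against 165 to 256 in low-mitochondrial barcodes (log2 fold over all other barcodes -2.74, SE 0.08, edgeR adjusted p = 6.3e-56). Tbx5, a T-box transcription factor, stood at 6.38, 9.11 and 11.9 against 49.1 to 75.8, and Parn, a poly(A) ribonuclease, at 11.3, 18.7 and 30.6 against 61.2 to 90.9. Vps37b of the ESCRT-I sorting complex, the long noncoding RNA Gm29825, Mgat4e, Kcnip2 and Ormdl3 had log2 folds of -2.39 to -1.58.

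Along the mitochondrial share these genes did not follow 1 course. The summed Speer4 genes had a median over libraries of 108 nuclear CPM below 0.25% mitochondrial, 183 at 2% to 4%, 277 at 4% to 8%, 513 at 8% to 10% and 578 at 10% to 13%. They were at 509 at 13% to 16%, 341 at 16% to 20% and 154 above 20%. Smoking library 3 differed from that course, with 782 at 13% to 16% and 753 at 16% to 20%. Hsp90b1 went from 189 below 0.25% to 813 at 8% to 10%, 1111 at 16% to 20% and 1310 above 20%. Cdc42ep3 was flat at 204 to 261 up to 4% and then went from 283 at 4% to 8% to 829 at 16% to 20% and 1075 above 20%. Gm8251 went from 261 to 42.2 at 4% to 8% and 14.5 above 20%. The summed protamines and transition proteins stayed between 86233 and 92514 in the median library of every range. Mitochondrial share chose the barcodes, so these courses are given with no test.

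**Figure D3:**
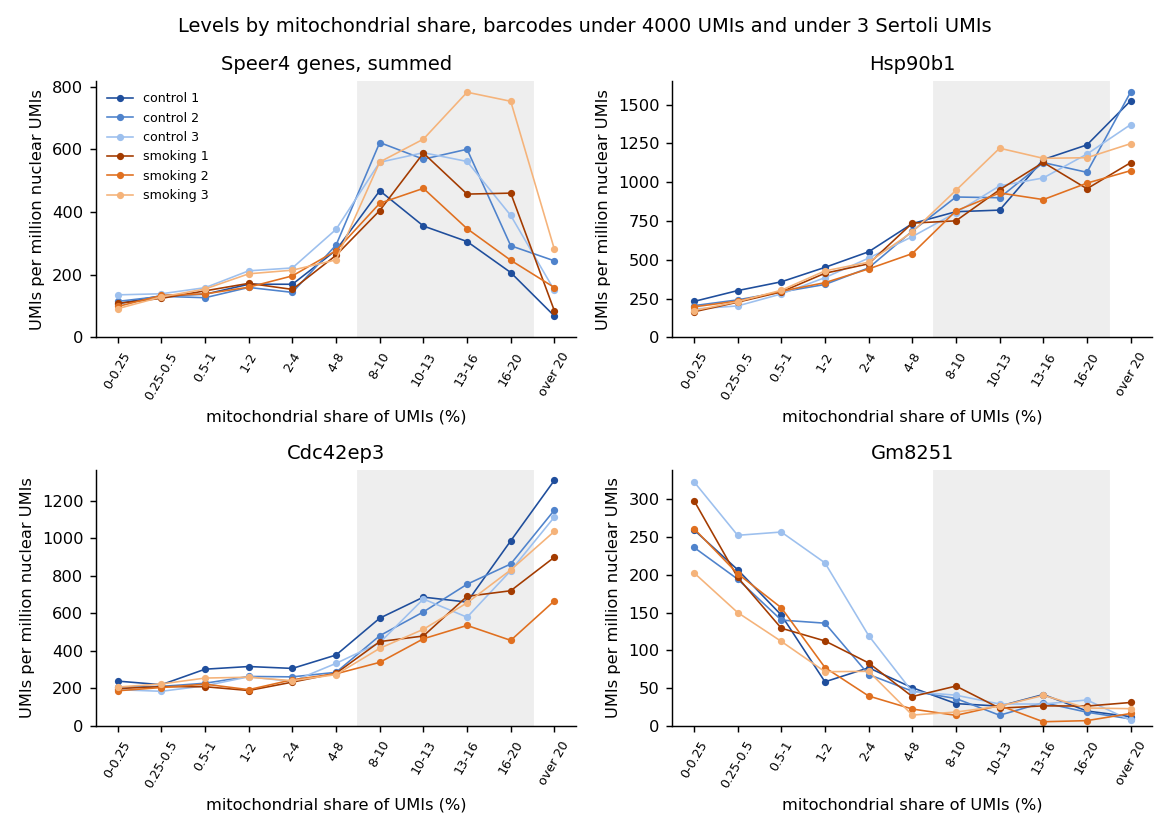
Nuclear CPM (y axes, from 0) of the summed Speer4 genes, Hsp90b1, Cdc42ep3 and Gm8251 in barcodes under 4000 UMIs and under 3 Sertoli UMIs, by range of the mitochondrial share (x axes, percent), 1 line per library, with the 8% to 20% ranges in grey. Speer4 peaks inside the window (578 at 10% to 13% in the median library, 154 above 20%), Hsp90b1 and Cdc42ep3 are highest above 20%, and Gm8251 is highest below 0.25%.

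The 854 barcodes with the same mitochondrial and Sertoli limits but 4000 UMIs or more, which the rule left out, were compared with the other barcodes of that depth. There 7012 genes passed (37.8%), and 3092 genes were higher (16.7%) and 3920 lower (21.1%) of 18562. Of the 957 genes higher in the mitochondria-rich barcodes, 944 were tested and 933 had a positive log2 fold, and 797 were called higher. Gm21190 had 2.93 there, Speer4e 2.63, Hsp90b1 1.67 and Cdc42ep3 1.63. The fold of Gm8251 was -0.76 against -2.74, and that of Prm1 -2.45 against -0.04. Unlike under 4000 UMIs, the stage lists differed there. Of the spermatogonia list 11 of 15 genes were called higher, while 17 of 18 elongating and 8 of 16 round spermatid genes were called lower. Of 19 spermatocyte genes, 1 was called higher and 3 lower. Of the 1409 lower genes, 1393 were tested and 1246 kept a negative fold.

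Genes of oxidative phosphorylation encoded in the nucleus did not pass the fold limit upwards. Of 61 tested, 0 were called higher (6.05% of all genes were) and 4 lower (8.91% of all genes were) against all other barcodes. Against low-mitochondrial ones 0 were called either way (6.19% of all genes were higher and 6.70% lower). Without the fold limit, 3 were higher (21.5% of all genes) and 12 lower (23.2% of all genes) there by adjusted p. Summed, the list stood at 13067, 13391 and 14104 nuclear CPM against 12330 to 15151, higher in 5 of 6 libraries. Uqcrq, a subunit of complex III, stood at 1038, 1082 and 1129 nuclear CPM against 947 to 1137, and Cox4i1, a subunit of cytochrome c oxidase, at 781, 887 and 975 against 715 to 919. The 4 lower genes, Cycs, Ndufa4, Cox7b and Cox8a, were at means of 480, 193, 43.0 and 309 in barcodes with Sertoli UMIs. Of 14 testis forms of mitochondrial proteins none was called (6.05% of all genes were called higher and 8.91% lower). Smcp, a protein of the sperm mitochondrial capsule, had -0.16 (SE 0.04), while Cox8c, a testis form of a cytochrome c oxidase subunit, had 0.40 (SE 0.04). Of 27 genes for mitochondrial RNA synthesis and processing, 0 were higher (6.05% of all genes) and 1 lower (8.91% of all genes). The lower gene was Hsd17b10, at -2.50, and at -0.62 and not called against low-mitochondrial barcodes. Tfam, which packages mitochondrial DNA, had -0.24 (SE 0.05). Of 26 genes of fission, fusion and mitophagy, 0 were higher (6.05% of all genes) and 2 lower (8.91% of all genes). The lower genes were Vdac1 and Fundc2, both at 3.39 nuclear CPM or less. Against low-mitochondrial barcodes Vdac1 was called lower (-1.14) and Fundc2 had 0.01 in place of -1.13.

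The stage lists of germ cells moved little. Of 19 spermatocyte, 16 round spermatid and 18 elongating spermatid genes tested, none was called either way (6.05% of all genes were called higher and 8.91% lower). By adjusted p alone, 11 of the 18 elongating spermatid genes were lower (23.6% of all genes) and none higher, with a median log2 fold of -0.11. Of the 16 round spermatid genes, 9 were lower and 2 higher (21.5% of all genes) by adjusted p alone, and 11 had a negative fold. Acrbp, which binds proacrosin in the acrosome, had 0.52 (SE 0.05) and stood at 695, 792 and 1092 nuclear CPM against 515 to 618. Of 13 spermatogonia genes, 1 was called higher (6.05% of all genes were) and 2 lower (8.91% of all genes were). Stra8, which starts meiosis, was higher at 2.91, 6.70 and 9.56 nuclear CPM against 0.593 to 2.71, and Uchl1 and Sohlh1 were lower. Against low-mitochondrial barcodes Sohlh1 was called lower too (-1.19), while Uchl1, at a mean of 143 nuclear CPM in barcodes with Sertoli UMIs, had -0.42 in place of -1.79 and was not called. Dazl, an RNA-binding protein of early germ cells, had 0.53 (SE 0.09). X-linked genes gave 0.976% to 1.09% of nuclear UMIs against 1.05% to 1.21% in low-mitochondrial barcodes, lower in 6 of 6 libraries.

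Genes of cell death and p53 gave calls in both directions, 2 higher (6.05% of all genes) and 4 lower (8.91%) of 21 tested. Casp9, an initiator caspase, stood at 2.93, 5.51 and 8.29 nuclear CPM against 1.69 to 3.62, and Bbc3, the proapoptotic protein PUMA, at 2.55, 5.32 and 7.50 against 2.11 to 2.63. Atf3, Ddit4, Gadd45g and Cdkn1a were lower. Against low-mitochondrial barcodes Atf3 was called lower (-2.30), and Ddit4, Gadd45g and Cdkn1a had -0.38, -0.99 and -0.97, below the fold limit. Diablo, a mitochondrial protein released in apoptosis, had 0.52 (SE 0.05), below the fold limit, at 296, 326 and 398 against 193 to 256 with no overlap. Of 20 immediate early and heat shock genes, 9 were lower and 0 higher. Fos stood at 1.46, 3.05 and 7.12 against 18.9 to 33.2, and Junb at 3.66, 5.99 and 9.70 against 16.4 to 29.2. Macrophage transcripts were lower as well, 7 of 10 called lower, with a summed level of 52.3 to 135 nuclear CPM against 234 to 350, and Cd74 had a median of 0 (0 to 2.97 against 17.2 to 54.0). Without barcodes of either side with 3 or more UMIs of somatic lists, 3 of 18 immediate early and heat shock genes were lower and 0 of 4 macrophage genes. The macrophage list is 1 of those somatic lists, so its own count follows from this filter.

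Among other somatic markers the summed Leydig list was higher in 5 of 6 libraries, with Fabp3, a fatty acid binding protein, at 36.98 to 69.3 nuclear CPM against 26.6 to 42.2. By gene, 6 of its 8 tested members had a negative fold against low-mitochondrial barcodes (median -0.58) and Cyp11a1, which starts steroid synthesis, was called lower (-1.09). Against all other barcodes 4 of 9 were called lower (8.91% of all genes were). Summed, the Sertoli list stood at 52.0 to 120 nuclear CPM against 57.4 to 116 (Fshr at 0), the Leydig list at 57.4 to 100 against 56.8 to 81.9, and the endothelial list at 7.65 to 16 against 15.7 to 24.9. The peritubular and mesenchymal list stood at 12.4 to 77.2 against 47.4 to 125, and the red blood cell list at 0.485 to 2.55 against 0.991 to 143 (Hba-a2 and Hbb-bt at 0). Smoking library 2 held most of the muscle signal, with Myh11, smooth muscle myosin, at 27.3 nuclear CPM against 0 to 1.45 in the other 5 libraries. Of the 4453 barcodes, 80 had 3 or more UMIs of these non-Sertoli somatic lists.

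Clustering split the mitochondria-rich barcodes into 11 groups, which the same genes define, so their leading genes are a description. Cluster 1 (1601 barcodes, 36.0%) had no gene far above the rest: Crisp2, a sperm and acrosomal protein, led by level with 2824 against 2035 nuclear CPM in the other mitochondria-rich barcodes. Its chaperone list stood at 3686 nuclear CPM, near the 3563 of low-mitochondrial barcodes, and its Speer family at 167, below their 267. The elongating spermatid list, which includes protamines and transition proteins, stood at 131136 in cluster 1 against 98568 in the other mitochondria-rich barcodes. In cluster 7 that list stood at 86387. Cluster 2 (814 barcodes) was led by the Speer copies, with Gm21190 at 1068 against 235 and the Speer family at 1476. The family also stood at 1365 in cluster 6, 1115 in cluster 7 and 1104 in cluster 3, and at 91.5 to 163 in clusters 5, 8, 9 and 11. Cluster 3 (471 barcodes) was led by Gm48051 (993 against 308) and the axonemal dynein Dnah3. Cluster 4 (390 barcodes) was led by Ppp3ca, a catalytic subunit of calcineurin (908 against 166), with Cdc42ep3 at 1675 against 463.

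Cluster 5 (389 barcodes) was led by 1700006A11Rik (469 against 60.0) and held Piwil1, the piRNA-binding protein MIWI, at 628 against 139. Cluster 6 (296 barcodes) held Acrv1, an acrosomal protein, at 949 against 203 and the hyaluronidase gene Hyal1. Cluster 7 (174 barcodes) had the highest level of the chaperone list, at 14006 against 4707 and Acrbp at 3051 against 742. Cluster 8 (145 barcodes) was led by Ncl (678 against 20.9), with Dazl and the synaptonemal complex gene Sycp1, and its spermatogonia list stood at 902 against 78.5. Cluster 9 (74 barcodes) was led by Gm35256 and Zfp820, and cluster 10 (64 barcodes) by Gm8251 and Prss58, genes that are low in the rest. Cluster 11 (35 barcodes) was led by Apoe, Acta2 and Lyz2, with the macrophage list at 5276 against 59.7. These 35 barcodes were led by macrophage and smooth muscle genes, which goes against the label.

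Every cluster had barcodes from all 6 libraries. Cluster 1 held 32.8%, 30.2% and 32.0% of the mitochondria-rich barcodes in controls and 45.3%, 46.6% and 31.2% in smoking libraries. Cluster 2 held 15.98%, 23.8% and 20.5% in controls and 11.9%, 16.2% and 20.2% in smoking libraries. Cluster 8 held 3.24% to 6.07% in controls and 1.96% to 2.28% in smoking libraries, and cluster 9 held 5.62% in control 1 and 0.393% to 1.81% elsewhere. Smoking library 3 was like the controls in clusters 1 and 2. Sizes of clusters were not tested.

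**Figure D4:**
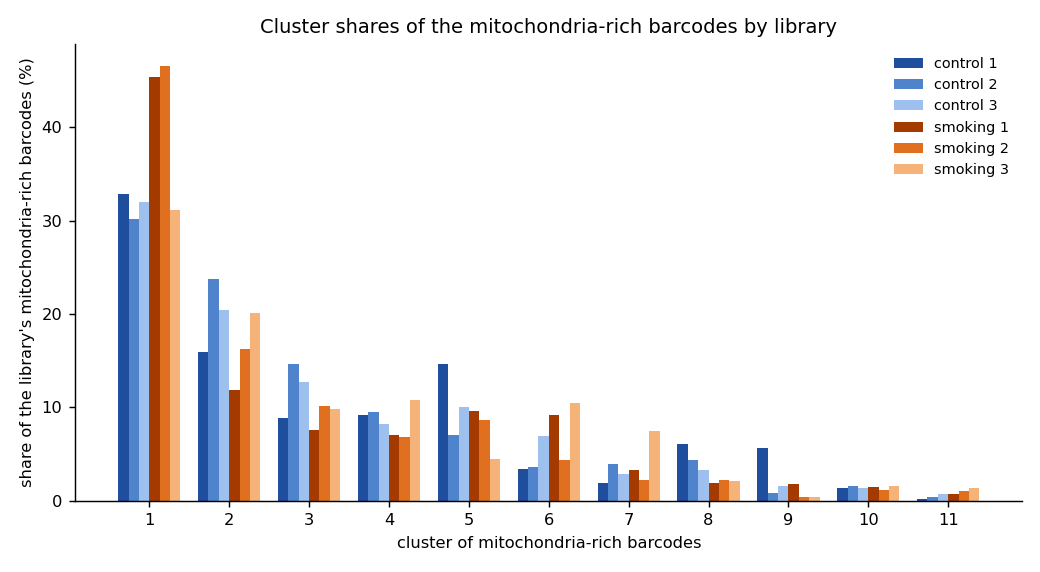
Share of each library's mitochondria-rich barcodes (y axis, percent) in each of 11 clusters (x axis), 1 bar per library. Cluster 1 is the largest in every library (30.2% to 46.6%), and smoking libraries 1 and 2 stand highest there.

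Smoking and control libraries differed little in how many mitochondria-rich barcodes they held. They made up 9.80%, 9.78% and 11.1% of barcodes under 4000 UMIs in controls and 9.99%, 10.7% and 14.8% in smoking libraries (10.2% ± 0.780 against 11.8% ± 2.58, SD, n = 3, exact two-sided permutation p = 0.5, where 0.1 is the smallest p that 3 against 3 allow). The groups overlapped. Smoking library 3 set the difference of 1.57 percentage points, which was 0.0924 without it. The median mitochondrial share, part of the rule, was 11.2%, 10.9% and 11.0% in controls and 12.0%, 11.7% and 12.5% in smoking libraries, with no overlap. After thinning to 1500 nuclear UMIs a mitochondria-rich barcode had a median of 997, 998 and 998 genes in controls and 966.5, 958.5 and 1036 in smoking libraries. Before thinning, at median depths of 2151.5 to 2654 UMIs, medians were 1345, 1396 and 1312 against 1142.5, 1305 and 1265.

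Within the mitochondria-rich barcodes edgeR's quasi-likelihood test called 1 of 9631 genes between smoking and control libraries (0.0104%). At an unadjusted p under 0.05 it had 448 genes, and DESeq2 called 1. Scgn, the calcium-binding protein secretagogin, stood at 25.5, 53.9 and 39.4 nuclear CPM in controls and at 5.12, 6.53 and 11.2 in smoking libraries, 234 UMIs in all. The groups did not overlap. Its log2 fold was -2.31 (SE 0.31, edgeR adjusted p = 0.00610), and without smoking replicate 1 the adjusted p was 0.0642. The same gene stood at 28.6, 50.9 and 52.4 in controls and 7.19, 6.07 and 19 in smoking libraries in the other barcodes under 4000 UMIs, and at 30.7, 44.0 and 45.8 and 6.67, 7.03 and 18.2 in those with 3 or more Sertoli UMIs. The difference of its smoking effect between the mitochondria-rich and other barcodes was -0.22 (limma adjusted p = 0.912).

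No other gene passed. The 4 next by p at a mean of 10 nuclear CPM or more each had an edgeR adjusted p of 0.701. Tmsb4x, an actin-binding peptide, stood at 42.1, 64.6 and 60.6 nuclear CPM in controls and 108, 87.3 and 89.7 in smoking libraries, and Samm50, which inserts proteins into the outer mitochondrial membrane, at 15.3, 17.4 and 18.1 against 5.85, 6.53 and 8.24. 1700071G01Rik, annotated as antisense, and the long noncoding RNA 4933411E08Rik had log2 folds of 1.12 and 1.07. The groups did not overlap for these 4 genes, which was true of 843 of the 9631 genes (8.75%). In the other barcodes Samm50 stood at 17.9, 14.8 and 17.6 against 16, 16.8 and 17.1. The difference of its smoking effect, -1.30, did not pass (limma adjusted p = 0.372). Tmsb4x stood at 1174 to 1746 in barcodes with Sertoli UMIs, and at 2198 in cluster 11 against 58.2 in the other mitochondria-rich barcodes. Cluster 11 gave 175 of its 750 UMIs. That cluster held 0.148% to 0.705% of the mitochondria-rich barcodes in controls and 0.753% to 1.38% in smoking libraries. The part of such cells in the values of Tmsb4x was not tested.

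**Figure D5:**
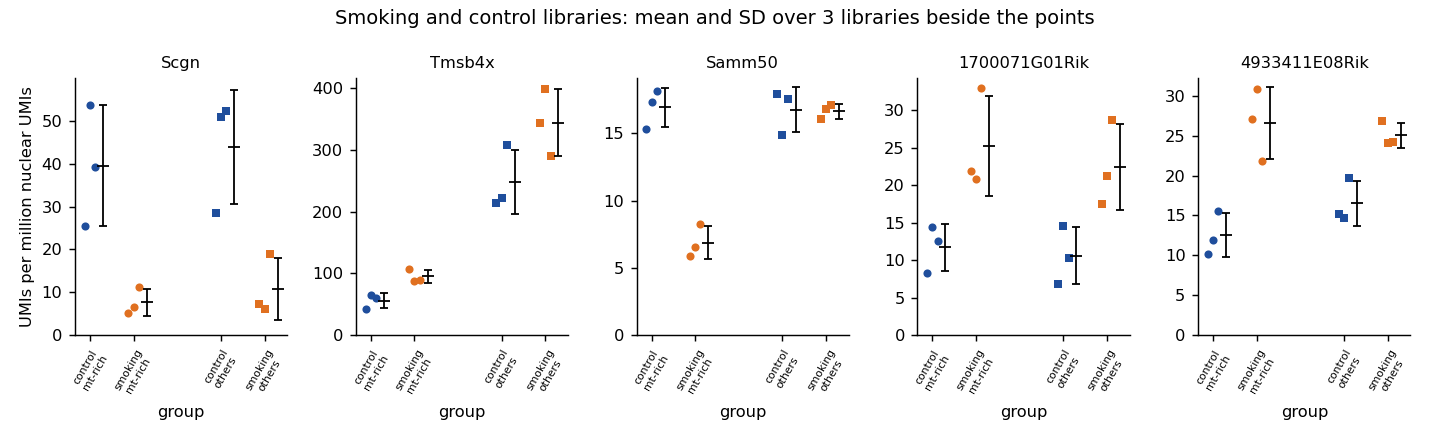
Nuclear CPM (y axes, from 0) of the 5 genes with the smallest p between smoking and control libraries, in mitochondria-rich (mt-rich, circles) and other barcodes under 4000 UMIs (squares), 1 point per library, with mean and SD of 3 libraries beside them. Scgn is lower in smoking libraries in both kinds of barcode, whereas the groups do not overlap for Samm50 in the mitochondria-rich barcodes and overlap in the others, a difference that did not pass the test.

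The difference of the smoking effect between mitochondria-rich and other barcodes was tested for 15807 genes with limma, and 0 passed (0.00%), with 997 at an unadjusted p under 0.05. AC157566.4, Samm50 and Lrif1 had the smallest p at 10 nuclear CPM or more, with adjusted p of 0.372 to 0.755. AC157566.4 stood at 61.9, 66.4 and 73.7 nuclear CPM in controls and at 100.3, 80.2 and 99.4 in smoking libraries, and in the other barcodes at 155, 120.2 and 176 against 152, 118 and 129, where the groups overlapped. Lrif1 stood at 86.1, 91.0 and 95.6 against 107, 97.4 and 130 in the mitochondria-rich barcodes, which did not overlap (true of 8.75% of genes there). In the other barcodes Lrif1 stood at 84.6, 72.9 and 88.3 against 70.7, 65.8 and 68.1, also without overlap but in the other direction. No Speer gene was called between the groups (0 of 9 tested), with log2 folds of -0.03 to 0.25. The chaperone list had 0 of 26 called (median -0.05), the smoke response and antioxidant list 0 of 16 (0.06) and the immediate early and heat shock list 0 of 12 (-0.05), against a median of 0.00 over all 9631 genes. Gpx4, the phospholipid glutathione peroxidase, and Gstm5, a glutathione transferase, were the most abundant of the smoke response list. Of the 13 mitochondrial transcripts edgeR called 0. As a mean share of mitochondrial UMIs, mt-Nd4 was 5.84% in controls against 5.43% in smoking libraries, and mt-Nd5 0.679% against 0.602%. Only these of the 13 did not overlap, each at an exact permutation p of 0.1, the smallest that 3 against 3 allow.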

How the data were processed

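The authors deposited raw UMI counts of 30905 genes in called barcodes of 6 testis libraries (3 control, 3 smoking). The file headers give Cell Ranger 3.1.0. Per the submitters' processing notes the tools were CASAVA 1.8 and Cell Ranger 7.1.0, with mm10, and which version made the counts is unsettled. Samples were grouped by the labels. Strand use in counting: not given in the sources used here.

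Barcodes were selected with Python 3.11.15 and summed by library. Gene totals were scaled to 1000000 UMIs of genes outside the mitochondrial genome (nuclear CPM). The comparison within libraries and that of smoking with control used edgeR 4.0.16 (TMM, filterByExpr, quasi-likelihood), the difference of effects limma 3.58.1 (prior count 1), and DESeq2 1.42.0 was an alternative, all with Benjamini-Hochberg adjustment over all genes tested. A call within libraries also needed a log2 fold of at least 1. Each edgeR standard error is the fold divided by the square root of F. The edgeR and limma fits were tested on simulated data with changes in well-counted genes. The smoking fit found 53.7% of 1.5-fold and 85.1% of 2-fold changes. The limma fit used here found 5.97% of 1.5-fold and 59.7% of 2-fold ones, so genes not called may still differ. The limma variance trend runs on mean log2 CPM. It was set after the data were seen, because in that test a trend on the mean difference recovered few changes, and both called 0 genes. Shares were compared by exact permutation over 20 assignments. Doublets were scored against simulated pairs (0.8% per 1000 barcodes) and kept. Shares of barcodes with a UMI were also taken after thinning to 1500 nuclear UMIs. The mitochondria-rich barcodes were clustered by Leiden (1500 variable genes, 30 components, 20 neighbours, resolution 1).

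Genes are named when called, at a mean of at least 50 nuclear CPM on 1 side, and changed the same way in 6 of 6 libraries in both comparisons, 12 each way. For smoking, where fewer than 3 genes passed, the 5 with the smallest p at 10 nuclear CPM or more are named, and for the difference of effects 3. Listed genes are the 4 most abundant per list and those called. The rule, the gene lists and the tests were chosen with earlier results of these data known. Other genes (those without calls in the chromosome 5 stretches, Cdc42ep3 and Calr) were chosen after their values were seen. Alternatives covered scaling, filter, tool, limits of the rule, doublets (for counts of calls and the share) and each library left out.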

Additional observations from a re-analysis of the deposited data

How the results depend on the processing

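The count of genes called between the mitochondria-rich and the other barcodes, 2366, stayed within 1.5 times under scaling, filter, tool, doublet, Sertoli and mitochondrial limits, thinning and the comparison with low-mitochondrial barcodes (1774 to 2508), and was 2148 to 2334 with each library left out. It was 1450 under 3000 UMIs and 7012 for barcodes of 4000 UMIs or more, an alternative chosen after seeing the data, as were the common UMI range (2492), leaving out somatic transcripts (2180) and no replicate block (1868). The 24 named genes kept their direction in every setting, and 2 fell below the fold limit in barcodes of 4000 UMIs or more (Gm8251 at -0.76 and Ftl1 at -0.85). Genes called between smoking and control libraries numbered 1, 26 without the filter on low counts (17 higher, 9 lower), and 0 to 13 with each library left out: 2 without control replicate 2, 0 without smoking replicate 1 and 13 without smoking replicate 3. The cause was not tested. Scgn had a log2 fold of -2.69 to -2.01 over 15 alternatives, past the threshold in 14. The difference of effects had 0 genes by limma in every alternative, each library left out included; with a variance trend on the mean difference, an alternative chosen after seeing the data, 900 genes were at an unadjusted p under 0.05 against 997. The difference in the share of barcodes stayed positive in all 7 other settings (0.393 to 2.26 percentage points), at 0.0924 to 2.48 percentage points with each library left out (exact p 0.2 to 0.8). Among barcodes of 4000 UMIs or more it was -1.32 (6.97% in controls against 5.64%, exact permutation p = 0.2). No paired analysis was possible because replicate numbers were given in accession order and pair no smoking with control library. Depth limits these sums: 3 libraries per group of 1366532 to 2062413 nuclear UMIs leave genes of a few nuclear CPM with few counts, and 3 against 3 libraries cannot give an exact p under 0.1.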
